A study of Mus musculus with 8 samples.

Results

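EpH4 is a mouse mammary gland epithelial line labelled as showing resistance to EMT. In EMT, or epithelial-mesenchymal transition, cells of an epithelial sheet lose their junctions and take on mesenchymal traits. Its response was read from 1 array of cells stimulated with recombinant human TGF-β1 and EGF, each at 3 ng/mL for 24 h, set against 1 array of resting cells kept without both factors. These are 2 of the 8 arrays of the series, chosen by their sample titles. The other 6 are stimulated and resting arrays of the mammary line NMuMG and of the kidney tubular lines mProx and MCT, handled in the same way. Stimulated and resting cells alike were in modified K-1 medium with 5 µg/mL insulin and 5 µg/mL transferrin, in which they had first been kept for 24 h. Both EpH4 arrays therefore come from cells exposed to insulin. With 1 array per condition the EpH4 contrast has no replicate check, no p-value is given for it, and the labels do not say how many cultures lie behind an array.

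TGF-β1 binds a pair of receptor kinases that phosphorylate SMAD2 and SMAD3, which enter the nucleus with SMAD4 and switch target genes on or off. EGF binds the receptor EGFR and activates the ERK kinases, which induce immediate early transcription factors, ETS factors and phosphatases that damp ERK itself. In mammary epithelium TGF-β slows proliferation and, in lines that respond with EMT, lowers E-cadherin and raises fibronectin, N-cadherin and vimentin.

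Signals are array intensities, given below as log2 levels after an offset of 10.6 and quantile normalization, and a change is the log2 level of stimulated minus that of resting cells. Median deposited signals ran from 41.5 to 59.6 over the 8 arrays and were 47.6 in stimulated and 59.6 in resting EpH4. Levels on the EpH4 pair correlated across genes at 0.985, where genes are not independent replicates. A gene was measured when the mean of its EpH4 levels was at least 5.27 (40th percentile of probe sets), and it is called dim on an array where it lay below that level. Of 18193 genes 12779 were measured. Luminal epithelial markers were present on both arrays. Of 11 luminal mammary markers on the array, 8 were above the filter in stimulated and 7 in resting cells, with summed deposited signals of 28526 and 28432, although Krt19 and Elf5 were dim on both. Of 8 fibroblast markers 5 were above the filter in either condition, with summed signals of 447 and 436, and Dcn, Lum and Thy1 were dim on both arrays. Of 6 leukocyte markers 3 were above it in either condition, with summed signals of 239 and 287, and Ptprc, Cd52 and Tyrobp were dim on both. The 4 proximal tubule markers used for this check were above the filter in both conditions, with summed signals of 276 and 245.

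Stimulated and resting EpH4 differed in a limited set of genes. At least 2-fold higher were 147 of 12779 genes (1.15%), and at least 2-fold lower were 86 (0.673%). Higher genes made up 63.1% of these calls, against 22.6% when the deposited values were used without normalization (83 higher and 284 lower), where the median of all genes lay at -0.28. The spread of changes widened towards the floor: the middle 95% of genes ran from -0.99 to 1.06 among genes with mean levels of 5.27 to 6.74 and from -0.35 to 0.46 among those of 9.84 to 13.54. Of the 233 genes changed 2-fold, 144 were dim on at least 1 array, so their sizes are not exact. Genes just inside the threshold were Clca4a at 1.00 and Wfikkn2 at -1.01, and just outside it were Ano1 at 0.99 and Oas3 at -0.997. Without a filter the same threshold took 1260 of 45037 probe sets as higher (2.8%) and 1263 as lower (2.8%), a near-even split. Above the filter, 320 of 26894 probe sets were higher (1.19%) and 267 lower (0.993%). Of the 3778 among them that carry no single gene symbol, 60 were higher (1.59%) and 63 lower (1.67%).

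**Figure D1:**
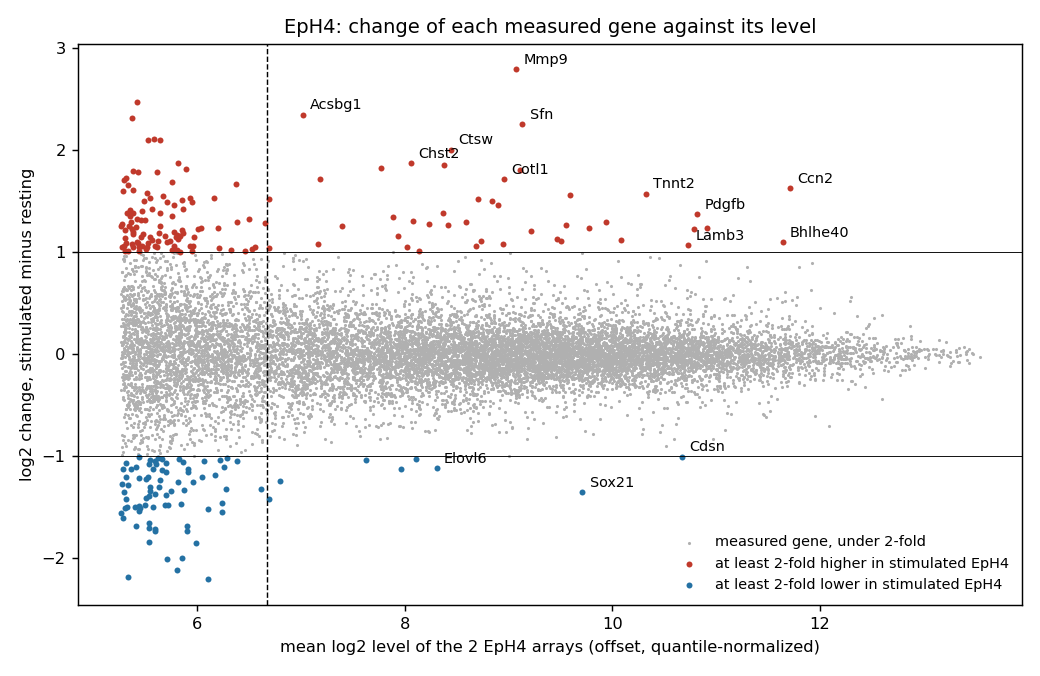
Log2 change (stimulated minus resting) of each measured EpH4 gene against its mean log2 level on both arrays. Changes scatter widely near the filter level and narrow at higher levels, where genes at least 2-fold higher outnumber those at least 2-fold lower.

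Among the 9682 genes whose mean level reached the 60th percentile, 6.67, here called brighter genes, 44 were at least 2-fold higher (0.454%) and 8 at least 2-fold lower (0.0826%). Probe sets of the same gene served as the check within the arrays. For 4352 brighter genes the change of the probe set that stands for the gene was compared with that of its brightest other. The SD of the differences, divided by the square root of 2 to give an SD per probe set, was 0.17. The differences themselves spread wider than that. For 20 of the 44 higher genes another probe set lay above the filter, and 35 of 35 such probe sets were also higher, with a median change of 1.03. Of the 103 higher calls below the 60th percentile, 11 of 17 other probe sets were also higher, with a median of 0.07, and 83 of the 103 were dim on an array. The brighter lower genes had less agreement, with 4 of 6 other probe sets also lower and 0 of them at least 1.5-fold lower. Among genes changed less than 2-fold, other probe sets shared the direction in 61.1% of cases for brighter genes. Below the 60th percentile the share was 56%. Agreement for the lower genes and for the higher calls below the 60th percentile thus lay near these shares. The agreement covers the measurement on these arrays and not the variation between cultures. The brighter genes below were named after their values were seen, beside those that a fixed rule names.

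**Figure D2:**
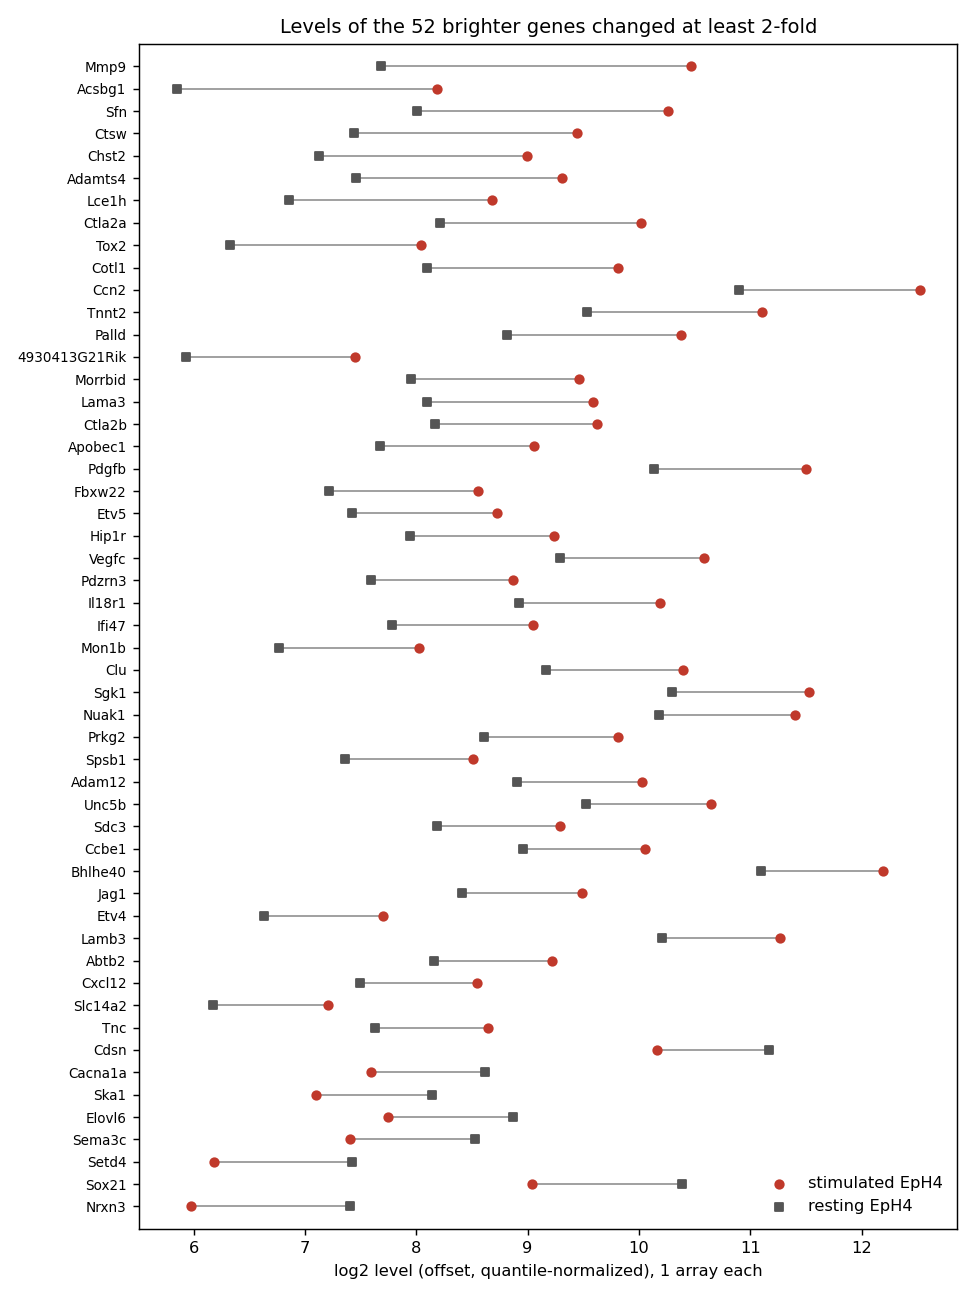
Log2 levels of the 52 brighter genes changed at least 2-fold, in stimulated and resting EpH4 cells, 1 array each. Lines join the levels of a gene, and the 44 higher genes and 8 lower genes are shown together.

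**Figure D3:**
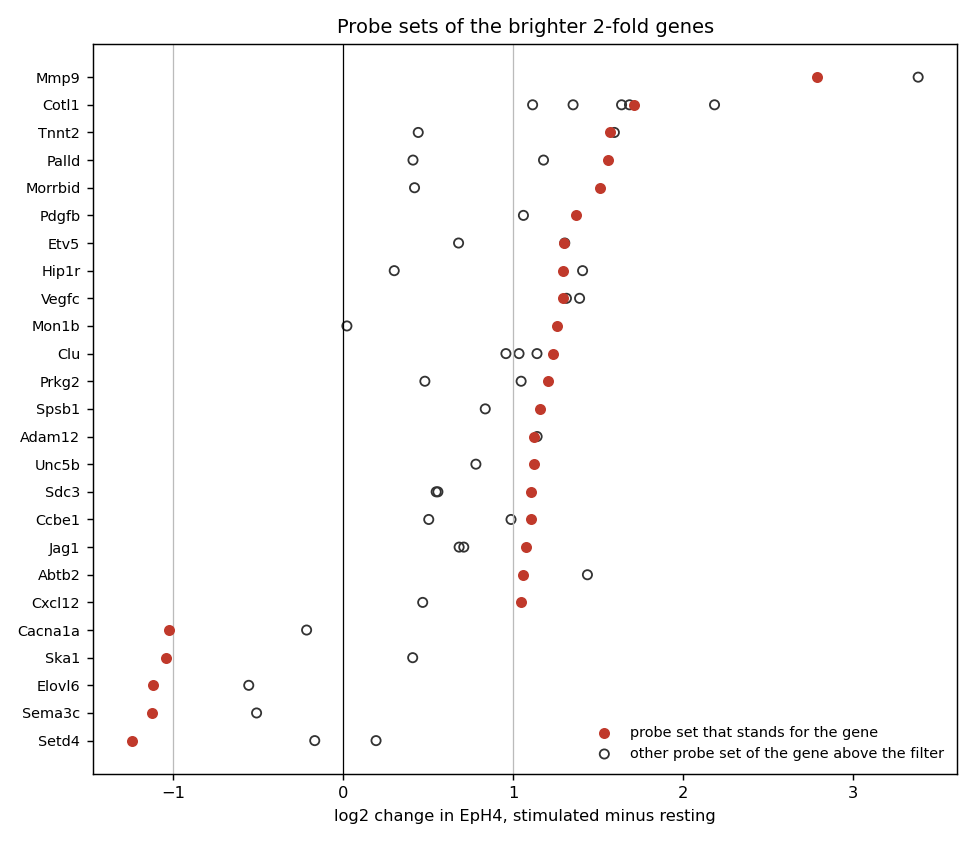
Log2 change of each probe set above the filter for brighter 2-fold genes of EpH4 that have more than 1. Other probe sets of the higher genes all lie above 0, while those of the lower genes fall on both sides.

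The largest difference among the brighter genes was in Mmp9, a secreted gelatinase that degrades basement membrane collagen. Its deposited signal was 1559 in stimulated and 252 in resting cells, a level of 10.47 against 7.68 and a normalized change of 2.79, or 6.89-fold. A second Mmp9 probe set gave 1172 and 112, with a change of 3.38. Both Mmp9 probe sets thus placed stimulated cells well above resting ones. Adamts4, a protease that cleaves aggrecan, was 9.30 in stimulated and 7.46 in resting cells, a change of 1.85. Adam12, a membrane metalloprotease, was 10.03 and 8.90, with changes of 1.12 and 1.14 on its probe sets. Adamts5, another aggrecan protease, differed the other way, at 10.28 in stimulated and 10.96 in resting cells (-0.68). Over the 24 measured matrix proteases and inhibitors the median change was 0.11, with 3 at least 2-fold higher and 1 lower, so the list as a whole lay near the median of all genes, -0.00.

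Some genes of the basement membrane and of cell attachment were higher in stimulated cells. Lama3, the α chain of laminin-332, was 9.59 in stimulated and 8.09 in resting cells, or 2.82-fold. Lamb3, the β chain of the same laminin, was 11.27 and 10.20, a change of 1.06. Lamb1, a chain of other laminins, was 9.76 and 8.95 (0.81), and Tnc, the matrix glycoprotein tenascin-C, 8.64 and 7.63 (1.01). Of these 4 genes only Lamb1 had other probe sets above the filter, and 2 of 2 were also higher. The other 3 genes rest on a single probe set each. A dim Lama3 probe set was lower (4.37 in stimulated and 5.23 in resting cells). Of 29 measured basement membrane and matrix genes, 22 lay above 0 and 7 below, and 7 were at least 1.5-fold higher and 0 lower, where 4.5% of all measured genes were at least 1.5-fold higher and 3.24% lower, and the list's median change was 0.23. Among 10 measured integrins the median was 0.32, with 9 above 0, 2 at least 1.5-fold higher and 0 lower. A median of that size was not limited to such lists, since 9 measured proximal tubule markers, of a tissue foreign to a mammary line, also had a median of 0.32, with 7 above 0. Itga5, the α chain of a fibronectin receptor, was 9.06 in stimulated and 8.10 in resting cells (0.95), and Itga2, of a collagen receptor, 7.39 and 6.46 (0.94).

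Targets of TGF-β and SMAD signalling were on the whole higher. Of 30 measured targets of a list of 40, 27 lay above 0, 4 were at least 2-fold and 11 at least 1.5-fold higher, and 0 were 1.5-fold lower, with a median change of 0.49. Over all measured genes 49.3% lay above 0. Ccn2, connective tissue growth factor, had deposited signals of 5910 in stimulated and 2507 in resting cells, with levels of 12.53 and 10.90 and a change of 1.62. Pdgfb, a growth factor chain, was 11.50 and 10.13 (1.37), and a second probe set gave 1.06. Pmepa1, a feedback inhibitor that binds SMADs, was 12.37 and 11.48 (0.89). Smad7, an inhibitory SMAD, was 10.84 in stimulated and 9.90 in resting cells (0.95), but its other probe set above the filter gave -0.46, so the probe sets disagreed. Col1a1, a fibrillar collagen chain, was 7.53 and 6.78 (0.75), and Ltbp2, a matrix protein of the latent TGF-β binding family, 9.17 and 8.34 (0.83). The list was chosen with earlier results of these arrays known and is not independent evidence of its direction.

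Inhba, which encodes the activin A subunit, and Fst, which encodes the activin-binding protein follistatin, were both lower. Inhba was 9.05 in stimulated and 9.87 in resting cells (-0.82), and Fst 8.76 and 9.59 (-0.83). Tgfbr3, the co-receptor betaglycan, was 8.13 and 7.39 (0.73). Among 23 measured receptors and SMADs the median change was 0.06, with 0 changed 2-fold. Of 14 measured BMP and Id targets the median was 0.07, and Id1, an inhibitor of bHLH factors, changed by 0.11.

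Among readouts of EGF and ERK signalling, the ETS factors and ERK phosphatases named here were higher. TGF-β1 and EGF were only given together, so neither these changes nor those of the TGF-β targets can be credited to 1 factor. Etv5, an ETS factor of the PEA3 group, was 8.73 in stimulated and 7.43 in resting cells (1.30), and its other probe sets gave 1.30 and 0.68. Etv4, of the same group, was 7.70 and 6.63 (1.07). Dusp6, a phosphatase that inactivates ERK, was 7.44 and 6.51 (0.92), and Dusp4, a nuclear phosphatase of the same family, 9.73 and 8.89 (0.84). Not all feedback genes were higher, since Spry4, a Sprouty inhibitor, changed by -0.36 and Myc by -0.07. Egr3, an immediate early factor, was 6.57 in stimulated and 5.15 in resting cells, where it was dim. Of 31 measured ERK genes 21 lay above 0 and 10 below, and 8 were at least 1.5-fold higher and 0 lower, with a median of 0.20.

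The genes by which EMT is usually scored differed little. Cdh1, which encodes E-cadherin, was 11.61 in stimulated and 11.84 in resting cells (-0.23), and Epcam 12.70 and 12.35 (0.35). The other Epcam probe set, also above the filter, was not higher, so the probe sets disagreed. Fn1, fibronectin, was 12.97 and 12.79 (0.17). Cdh2, N-cadherin, was 5.16 and 5.38, at the filter level, and Vim, vimentin, was below it on both arrays at 4.19 and 4.02, so neither small difference shows that the gene stayed the same. Among EMT transcription factors, Snai1 changed by 0.42, Zeb2 by 0.04, Zeb1 by -0.13, Snai2 by -0.19 and Twist1 by -0.27. For Zeb1 the other probe set above the filter was not lower. Of 19 measured mesenchymal markers 10 lay above 0 and 9 below, with a median of 0.04 and 0 changed 2-fold, and of 35 epithelial junction genes 20 lay above and 15 below, with a median of 0.05 and 0 changed 2-fold. The junction gene with the largest difference was Pkp1, a desmosomal plakophilin, at 11.72 in stimulated and 10.87 in resting cells (0.85).

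Epithelial and basal genes were present among those that were higher. Sfn, the 14-3-3 sigma protein of epithelial cells, had deposited signals of 1351 in stimulated and 327 in resting cells, levels of 10.26 and 8.01 and a change of 2.25, or 4.76-fold. Krt14, a basal keratin, was 11.09 and 10.22 (0.87), and 8 of 9 measured keratins lay above 0, with a median of 0.29. Of 13 measured basal and myoepithelial markers 8 lay above 0 and 5 below, with a median of 0.33. The summed deposited signal of the 6 markers used to check identity was 3061 in stimulated and 2240 in resting cells, and most of that difference was Krt14 alone, at 2355 and 1594. Trp63 and Myh11 were dim on both arrays, and Myh11 and Oxtr had lower signals in stimulated cells. In a bulk sample a different number of cells of a type and a different amount of RNA per cell cannot be told apart. Sox21, a transcription factor, was 9.04 in stimulated and 10.39 in resting cells (-1.35). Cdsn, corneodesmosin of keratinised epithelia, was 10.17 and 11.17, or 2.01-fold lower, on its 1 probe set and just inside the threshold.

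Several actin-associated genes outside the actin cytoskeleton list were higher. Cotl1, a coactosin-like actin-binding protein, was 9.81 in stimulated and 8.10 in resting cells (1.71), and its 5 other probe sets gave 1.11 to 2.18. Palld, the actin scaffold palladin, was 10.37 and 8.82 (1.56), with 1.18 and 0.41 on its other probe sets. Tnnt2, a troponin of striated muscle, was 11.11 and 9.54 (1.57). Every probe set above the filter of these 3 genes was higher in stimulated cells. Over the 33 measured genes of that list the median change was 0.12, with 24 above 0 and 0 changed 2-fold.

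Several growth factor and signalling genes also differed. Vegfc, a lymphatic growth factor, was 10.58 in stimulated and 9.29 in resting cells (1.30), and its other probe sets gave 1.31 and 1.39. Jag1, a Notch ligand, was 9.49 and 8.41 (1.08), with 0.68 and 0.71 on its other probe sets. Of 15 measured Notch pathway genes, however, 10 lay below 0, with a median of -0.02, and the receptor Notch1 was 7.85 in stimulated and 8.61 in resting cells (-0.76). Sgk1, a serum- and glucocorticoid-regulated kinase, was 11.53 and 10.30 (1.23). Il18r1, a chain of the interleukin-18 receptor, was 10.19 and 8.92 (1.27). In the NF-kB list 24 genes were measured with a median of 0.21, 5 were at least 1.5-fold higher and 1 lower. Nfkbia, the inhibitor IκBα, was 12.23 in stimulated and 11.60 in resting cells (0.62), with 4 of 4 other probe sets also higher, and Birc3, an inhibitor of apoptosis, was 8.61 and 7.72 (0.89).

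Proliferation genes were lower together by small amounts. Of 39 measured genes of DNA replication and mitosis, 36 lay below 0 and 3 above, with a median of -0.31, and 4 were at least 1.5-fold and 0 at least 2-fold lower. Rrm2, a subunit of ribonucleotide reductase, was 8.64 in stimulated and 9.29 in resting cells (-0.65). Ccne2, a cyclin of the entry into S phase, was 6.60 and 7.28 (-0.67). Mki67, the proliferation antigen, was 8.65 and 9.18 (-0.53). The stress and metabolism lists also had medians below 0, at -0.16 for 20 NRF2 and glutathione genes and -0.13 for 26 genes of the unfolded protein response. Ephx1, an epoxide hydrolase, was 11.74 in stimulated and 12.45 in resting cells (-0.71). Elovl6, a fatty acid elongase, was 7.75 and 8.87 (-1.12), and its other probe set gave -0.56.

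**Figure D4:**
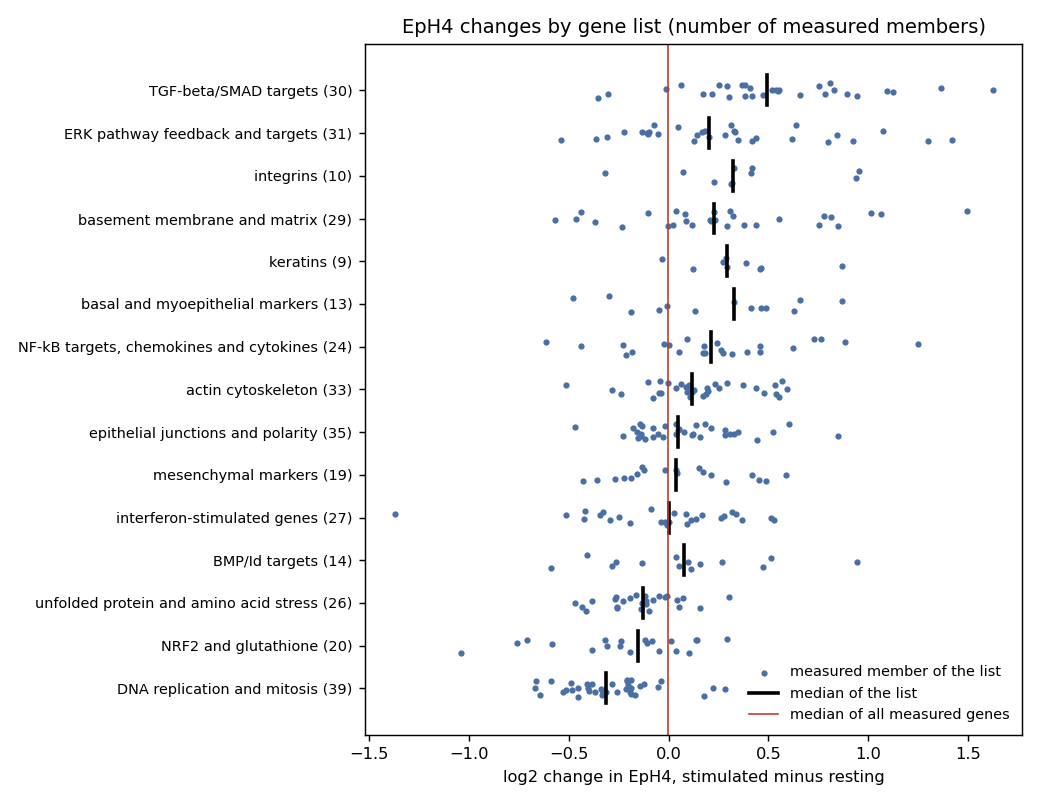
Log2 change of the measured members of gene lists in EpH4 cells, stimulated minus resting, with each list's median. TGF-β/SMAD targets have a median of 0.49, mesenchymal markers 0.04, and DNA replication and mitosis genes -0.31.

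A papain-family protease and related inhibitors were among the higher genes. Ctsw, the cathepsin W known from cytotoxic lymphocytes, had deposited signals of 756 in stimulated and 208 in resting cells, levels of 9.44 and 7.44 and a change of 2.00. Ctla2a and Ctla2b encode inhibitors that resemble the propeptide of cathepsins. Ctla2a was 10.02 in stimulated and 8.21 in resting cells (1.80), and Ctla2b 9.62 and 8.17 (1.45). Over the 14 measured papain-family proteases and cysteine protease inhibitors the median change was 0.07, with 9 above 0 and 5 below, and these 3 were the members at least 2-fold higher. Ctla2a and Ctla2b are close copies, so signal shared between their probes is possible and was not tested. The 250 bases before their starts are shown because both genes were higher. They come from RefSeq on GRCm38.p6, minus strand, at chr13:60936626-60936875 for Ctla2a and chr13:60897448-60897697 for Ctla2b, and capitals mark TGACTCA, the reverse complement of the AP-1 motif TGAGTCA.
Ctla2a: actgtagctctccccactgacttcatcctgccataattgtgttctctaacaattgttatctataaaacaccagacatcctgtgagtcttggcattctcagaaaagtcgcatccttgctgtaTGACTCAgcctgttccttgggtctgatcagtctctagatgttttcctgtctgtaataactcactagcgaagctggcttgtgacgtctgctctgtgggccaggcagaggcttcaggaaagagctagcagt
Ctla2b: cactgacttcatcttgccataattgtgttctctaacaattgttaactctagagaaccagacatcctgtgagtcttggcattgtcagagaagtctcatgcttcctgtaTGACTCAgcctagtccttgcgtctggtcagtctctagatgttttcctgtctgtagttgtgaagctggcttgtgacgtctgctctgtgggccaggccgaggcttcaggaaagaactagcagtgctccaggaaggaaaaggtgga
The windows were identical in 208 of 272 aligned columns (76.5%). They are shifted against each other, the marked motif beginning 129 bases before the start in Ctla2a and 143 in Ctla2b. Bases at the outer ends that lie in only 1 window counted as not identical, which lowers that share. Ctla2a has 2 promoters in the table, and the one most similar to the Ctla2b window was taken. The similarity of the windows shown is thus partly a product of that choice. On either strand the motif lay in this window for 5.16% of 27025 genes, for 3.81% of 7949 brighter genes and for 3 of the 29 brighter higher genes with a promoter in the table, the third being Palld. The SMAD motif CAGACA, on either strand, lay in it for 19.3% of all genes, 15.5% of the brighter genes and 10 of the 29 (34.5%), and the ETS motif CCGGAAG for 7.83%, 17.5% and 2 of the 29 (6.9%). Both windows also hold CAGACA once on each strand, not capitalised here, and no CCGGAAG. A match is a run of letters and not a binding site.

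Other lines were used only to place the EpH4 changes. Acsbg1, an acyl-CoA synthetase, was 8.19 in stimulated and 5.85 in resting EpH4 (2.34), and changed by 3.12 in mProx, 4.25 in MCT and 3.24 in NMuMG. Mmp9 changed by -0.34 in mProx, 1.55 in MCT and -1.44 in NMuMG, and Sfn by -0.16, -0.16 and 0.25 in the same order. Mmp9 was dim in resting MCT (4.10) and stimulated NMuMG (4.02), so its changes there are not exact. Sfn was dim in stimulated MCT and on both NMuMG arrays, and Acsbg1 was dim in the resting cells of each other line. Of the 44 brighter higher genes, 13 of the 38 measured in mProx were at least 2-fold higher there, 22 of 38 in MCT and 17 of 40 in NMuMG, where 2.22%, 2.6% and 2.67% of all measured genes were. Counted over all 44, whatever their level in the other lines, 7 were at least 2-fold higher in all of those lines. Another 16 were under 2-fold in each of them. The 16 include genes near the floor elsewhere, such as Il18r1, at 3.71 to 4.99 on the arrays of the other lines. For such genes the count does not show a lack of response. Of the 8 brighter lower genes, 0 of 8 measured in mProx, 1 of 8 in MCT and 1 of 7 in NMuMG were at least 2-fold lower there, where 2.37%, 2.45% and 1.95% of all measured genes were. Whether the EpH4 response differs from the mean of the other lines was tested with limma, with the cell line as a block and EpH4 assumed to vary like the other lines. It called 0 of 12779 genes (0%) after Benjamini-Hochberg adjustment, so no change is called particular to EpH4. At an unadjusted p under 0.05 were 374 genes, a smaller share of the genes than 0.05.

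**Figure D5:**
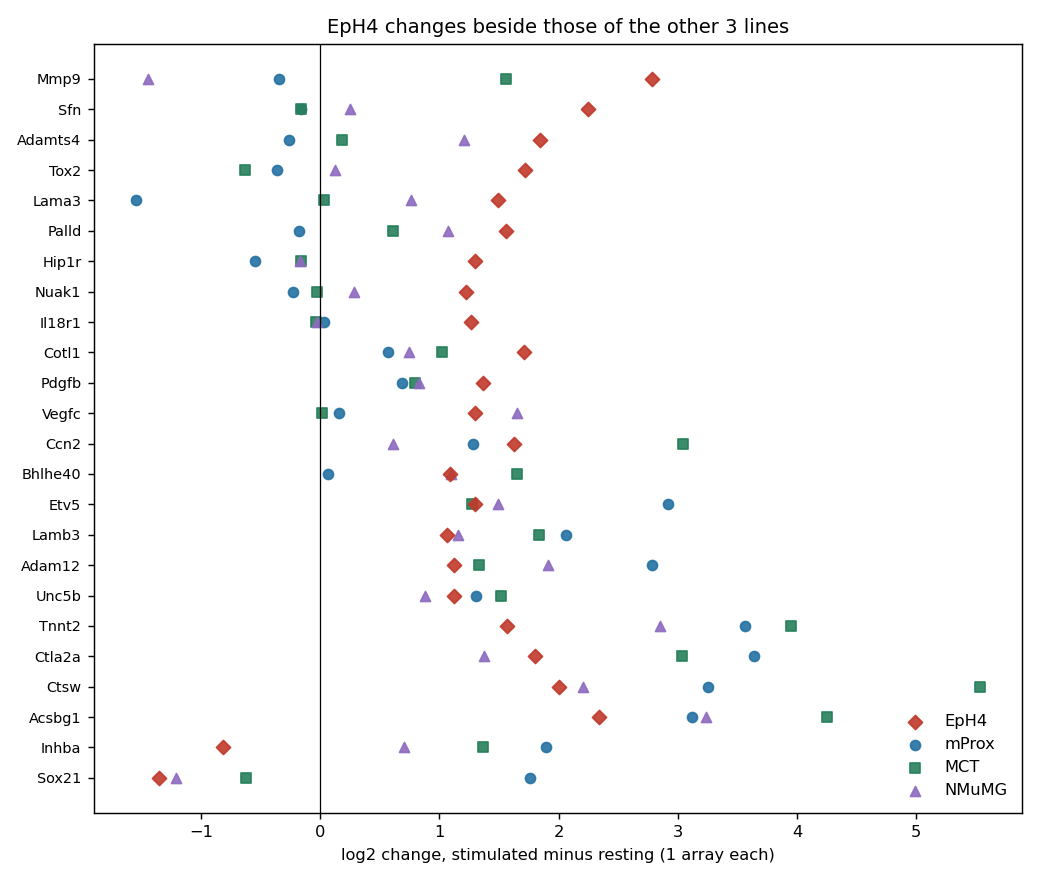
Log2 change, stimulated minus resting, of selected EpH4 genes in EpH4, mProx, MCT and NMuMG, 1 array per condition and line. Mmp9 is at 2.79 in EpH4 and -1.44 in NMuMG, where it was dim in stimulated cells, and Acsbg1 is above 2 in each line. Some of the genes shown were dim in other lines.

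The genes with large differences near the floor are given as names. Of the 25 largest higher genes that the fixed rule takes, 15 lay below the 60th percentile and 14 were dim on an array, among them Hcn2, a pacemaker channel, at 6.65 in stimulated and 4.18 in resting cells. Foxh1, a SMAD-binding transcription factor, was 7.20 and 5.54, dim on neither array, and no other probe set of it lay above the filter. Of the 20 largest lower genes 0 reached the 60th percentile and 18 were dim on an array, among them Six5, a homeobox factor, at 4.74 in stimulated and 6.86 in resting cells, and Nlrp3, an inflammasome sensor, at 4.70 and 6.71.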

How the data were processed

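Total RNA of 4 mouse lines was measured on Affymetrix whole-genome mouse expression arrays, 1 resting and 1 stimulated array per line. The deposited values are linear intensities for 45101 probe sets, made with MAS5 per the submitters' processing notes (version and target intensity: not given in the sources used here). The 64 control probe sets were removed. An offset of 10.6 (25th percentile of positive signals) was added, which understates changes of dim genes, and log2 values were quantile-normalized over 8 arrays. Of the probe sets, 34945 had 1 symbol in the platform annotation, 932 several and 9160 none, and 34741 were matched to the GRCm38.p6 gene table. The probe set with the highest EpH4 mean stood for a gene, avoiding those marked as cross-hybridising. A 2-fold change was the threshold. The named genes are the 25 largest higher and 20 largest lower, a panel, and up to 5 members of each list described. For the largest, the higher array was not dim and no other probe set above the filter went the other way. Genes with no other probe set above the filter passed too, and most of the largest were such genes. The members and the 34 gene lists were chosen with earlier results of these data known. The difference from other lines was fitted with limma 3.58.1 in R 4.3.3 (eBayes with a trend, Benjamini-Hochberg). It was checked on simulated data in which the other lines had no response of their own. In the arrays the spread of responses among those lines sets the error, so the simulation does not show what the test could call here. A lack of calls therefore does not show that EpH4 responds like the other lines. The line names pair the arrays. The number of arrays limits the precision.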

Additional observations from a re-analysis of the deposited data

Results flagged for a closer look

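Of the 240 measured genes that the naming rule or a 2-fold change at brighter levels takes, 26 changed in EpH4 opposite to every other line (10.8%), against 1960 of all 12779 measured genes (15.3%). The limma test of the difference passed for none of the 26, at an adjusted p of 1.00 each.

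The 26 were picked by the direction of the same values, so their difference from the other lines is not separate evidence. Of the 26, 10 were brighter genes changed at least 1.5-fold in EpH4. Nfkbia changed by 0.62 in EpH4 and by -0.31 in mProx, -0.42 in MCT and -0.41 in NMuMG. Relb, an NF-kB subunit, changed by 0.73 in EpH4 and by -0.22, -0.13 and -0.66 in the same order of lines. Tgfbr3 changed by 0.73 in EpH4 and by -1.56, -0.86 and -0.33. Inhba changed by -0.82 in EpH4 and by 1.89, 1.37 and 0.71. Rrm2 changed by -0.65 in EpH4 and by 0.05, 0.08 and 0.16. Ccne2 changed by -0.67 in EpH4 and by 0.13, 0.03 and 0.88, and was dim in resting NMuMG. Esr1, the estrogen receptor, changed by -0.71 in EpH4 and by 0.13, 0.10 and 0.82, and was dim in MCT and NMuMG. Hip1r, an endocytic adaptor, changed by 1.30 in EpH4 and by -0.54, -0.16 and -0.17. Fbxw22, an F-box protein, changed by 1.34 in EpH4 and by -0.17, -0.28 and -0.12. Setd4, a methyltransferase whose EpH4 probe sets disagreed, changed by -1.24 in EpH4 and by 0.41, 1.24 and 0.05.

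The other 16 lay at lower levels or changed less in EpH4. Those higher in EpH4 were Olfr64 (2.31), Ehf (0.75), Mylk (0.63), Ramp2 (0.55), Cldn1 (0.44), Ptgds (0.32) and Ppl (0.20). Another Cldn1 probe set above the filter gave -0.30 in EpH4. Those lower in EpH4 were Sema4f (-1.69), Ephb1 (-1.51), Mmp7 (-0.83), Cdc6 (-0.59), Nop56 (-0.50), Atf3 (-0.47), Retn (-0.45), Twist1 (-0.27) and Snai2 (-0.19).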

How the results depend on the processing

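Counts of 2-fold genes depended on how dim signals were treated. The 147 higher genes became 83 with the values as deposited, 48 with the offset at the median signal, 461 with no filter and 44 with the filter at the 60th percentile. The 86 lower genes became 284 as deposited, 133 with the offset at the 10th percentile, 11 with it at the median, 397 with no filter and 8 at the 60th percentile. All 44 brighter higher genes stayed higher under each of 12 alternatives, and 26 were still 2-fold as deposited, 37 with the offset at the median and 35 with the mean of a gene's probe sets. Of 767 values of the 2-fold named genes under alternatives 0 reversed. Alternatives that only moved the filter left each gene's change as it was, so they could not reverse it. These genes were picked for changes of at least 2-fold, so keeping the direction is a weak check. The adipocyte list, with 2 measured members, had a median of -0.31, and 0.16 with no filter. List medians followed the scale of the arrays: over the alternatives their lowest values were -0.05 for basement membrane and matrix, -0.08 for ERK, -0.07 for NF-kB, -0.07 for actin, -0.16 for matrix proteases and -0.59 for DNA replication. Relative to the median of all genes they ran from 0.19 to 0.24, 0.19 to 0.28, 0.08 to 0.27, 0.11 to 0.22, 0.06 to 0.21 and -0.32 to -0.28 in that order, and from 0.45 to 0.53 for TGF-β/SMAD targets. The difference from the other lines gave 0 calls, and leaving out a line gave 0 calls each time. With the values as deposited it gave 3, where the fit had a median of 25900 degrees of freedom against 7.38 in the main fit. Without the cell line as a block, limma called 0 genes, with 50 at an unadjusted p under 0.05. MAS5 signals near the floor limit what can be said of dim genes.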

Other observations

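Dhrs3, a retinaldehyde reductase, was 5.95 in stimulated and 7.27 in resting EpH4, while Rdh10, a retinol dehydrogenase, differed by 0.91 in the other direction. Of 14 measured genes of retinoid, prostaglandin and other lipid enzymes, 2 were at least 2-fold higher and 1 lower, with a median of 0.18.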
